A study of Mus musculus with 4 samples.

Results

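Lysosomal genes were followed across 4 RNA libraries of tumour-infiltrating myeloid-derived suppressor cells (MDSCs), immature myeloid cells of granulocyte-like and monocyte-like kinds that dampen T cell responses. The 42 genes were taken by name from a list whose rule uses no measured value, though the list was drawn up with earlier results of these data known, and all 42 were among the 17476 genes of the count table. They comprise 18 hydrolases, 6 membrane proteins, 3 soluble proteins that are not enzymes, and 15 subunits or accessory proteins of the vacuolar proton pump (V-ATPase). The design asked how MDSCs with a Trem2 mutation differ from wild-type (WT) MDSCs. Trem2 encodes a receptor on myeloid cells that binds lipids. The 2 WT libraries (WT 1 and WT 2) came from recipients of MDSCs grown in vitro from C57BL/6 bone marrow, and the 2 mutant libraries (Trem2 mutant 1 and Trem2 mutant 3) from recipients of MDSCs grown from TREM2mut bone marrow. Both genotypes are labelled C57BL/6, and the sources used here do not say what the mutation is. All recipients were male NRG mice, an immunodeficient strain, 6 weeks old when TRAMP-C1 prostate cancer cells were placed under the skin. The MDSCs were injected 4 weeks later and the tumours were taken after a further 6 h. Tumours were digested for 45 minutes before cells carrying CD45, CD11B and GR1 were sorted. The sort used no marker that tells injected cells from the host's own myeloid cells. Nothing states that libraries of a genotype came from separate animals or cultures, so p-values speak only to the spread among these 4 samples, and that spread may be technical.

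Lysosomes are acidic compartments in which phagocytic cells break down ingested and cellular material. The V-ATPase pumps protons into them: its V1 sector burns ATP in the cytosol, and its V0 sector carries protons through the membrane. Hydrolases work mainly in the acidic lumen, and membrane proteins protect the boundary and export products. Many of these genes are targets of TFEB, TFE3 and MITF, transcription factors that bind a short E-box motif near start sites of lysosomal genes.

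That motif is shown first because it is the sequence these genes are best known to share. TCACGTG was searched on both strands in RefSeq promoters of 300 bases, from 250 before to 50 after each start site (build GRCm38.p6). Of the 42 genes, 35 matched a promoter entry by symbol, and 10 of the 35 (28.6%) held the motif, against 4.29% of 27025 genes with an entry. The 10 were Lamp1, Mcoln1, Gaa, Gla, Glb1, Naglu, Atp6v0b, Atp6v0d1, Atp6v0e and Atp6v1a. The shorter core CACGTG, which lies within every TCACGTG, was found for 8.09% of all genes. The windows below run from 90 bases upstream to the base before the start site, 5′ to 3′ on the gene's strand, with each TCACGTG or its reverse complement in capitals. Mcoln1 and Naglu are shown as the motif-bearing genes that fell in the mutant libraries, Lamp1 for its 4 copies, and Glb1 and Atp6v0b as motif-bearing genes whose change did not pass the test.
Mcoln1 (chr8:3500429-3500518, plus strand): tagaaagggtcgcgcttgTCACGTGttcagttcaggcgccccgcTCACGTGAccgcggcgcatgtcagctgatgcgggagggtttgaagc
Naglu (chr11:101070004-101070093, plus strand): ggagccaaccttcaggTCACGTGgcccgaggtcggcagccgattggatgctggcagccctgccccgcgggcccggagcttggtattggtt
Lamp1 (chr8:13159071-13159160, plus strand): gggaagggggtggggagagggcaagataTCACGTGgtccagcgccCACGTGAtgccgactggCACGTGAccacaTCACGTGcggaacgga
Glb1 (chr9:114400988-114401077, plus strand): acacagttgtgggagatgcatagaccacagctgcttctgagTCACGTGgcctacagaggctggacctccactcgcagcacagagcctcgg
Atp6v0b (chr4:117887330-117887419, minus strand): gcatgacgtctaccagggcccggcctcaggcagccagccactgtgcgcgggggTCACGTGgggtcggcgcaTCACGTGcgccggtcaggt
The motif was present in 2 of the 6 genes with an entry that fell, in 8 of the 27 that did not pass, and in 0 of the 2 that rose. With Atp6v0c counted as a fall, as it is once reads of its pseudogene are added, the shares are 2 of 7 that fell and 0 of 1 that rose. A match describes the letters only and is not a binding site.

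Total counts were 8037733 (WT 1), 8077966 (WT 2), 10306674 (Trem2 mutant 1) and 9820893 (Trem2 mutant 3) reads. Trem2 itself stood at 44.2 and 52.2 CPM (read counts scaled to library size, here by the TMM method) in the WT pair and 22.9 and 21.0 CPM in the mutant pair, a log2 fold change of −1.14 (SE 0.125, adjusted p = 0.00157, edgeR). In Trem2 mutant 1, 13.9% of reads fell on Gm42418, a locus overlapping ribosomal RNA sequence, against 0.258% to 1.04% in the other libraries. The 42 genes had 148 to 45689 reads per library. Levels of different genes are compared only as CPM per kb of exon. Xist, the RNA made from the silenced X chromosome of female cells, had 2 and 3 reads in the WT pair and 6928 and 9117 reads in the mutant pair, although every recipient is labelled male; the sex of the marrow donors is not stated. Marker RNAs of several cell types also differed between the genotypes, and their part in the results below was not tested. Of 16 granulocyte markers 14 rose and 0 fell (edgeR, adjusted p under 0.05), where 9.55% of all genes tested rose and 3.6% fell. Their summed level went from 7409 to 7551 CPM in WT to 28380 to 34440 CPM in mutant libraries. Of 10 monocyte markers 8 rose and 1 fell (summed 1302 to 1424 against 4815 to 6760 CPM). Of 14 macrophage markers 5 rose and 2 fell, and their summed level was 3194 to 3314 CPM in the WT pair, against 2890 to 3165 CPM in the mutant pair. The 2 falls were Trem2 and the abundant Gpnmb (1036 and 978 CPM in the WT pair, 529 and 602 CPM in the mutant pair). The median log2 fold change of the 14 was 0.85, so the sum and the median point in different directions. Of 8 eosinophil markers 6 were tested and all 6 rose (summed 99.8 to 101 against 211 to 239 CPM), with Ear1 at 0 reads in WT. Of 8 fibroblast markers 6 were tested and 4 rose (summed 117 to 164 against 434 to 468 CPM). Of 7 lymphoid markers 4 were listed, with summed levels of 12.51 to 13.03 CPM against 7.79 to 9.46 CPM, while Cd3e, Ncr1 and Nkg7 were not among the listed genes. Of 6 epithelial markers 2 were tested and 1, Cdh1, fell (summed 154 to 161 against 85.8 to 88.5 CPM), while Krt8 had 0 reads in WT 1. The sorting antigens were present: Itgam, which encodes CD11B, stood at 420 and 431 CPM in the WT pair and 653 and 643 CPM in the mutant pair, and Ptprc, which encodes CD45, at 1114 and 1162 against 1328 and 1363 CPM. Ly6g, which encodes a GR1 antigen, was low in WT at 5.66 and 7.22 CPM, against 144 and 123 CPM in the mutant libraries. The other GR1 antigen gene, Ly6c2, stood at 26.9 and 24.8 CPM in the WT pair and 378 and 282 CPM in the mutant pair. In bulk samples, fewer cells of a type and less RNA per cell cannot be told apart.

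Of the 42 lysosomal genes, 12 changed and 9 of these fell, a balance that depended on the libraries kept. The median absolute log2 fold change of the 42 was 0.18, against 0.19 for genes at least as abundant as the lowest of them. All 42 passed the filter on low counts. In the mutant libraries 9 fell, 3 rose and 30 did not pass (edgeR quasi-likelihood test, adjusted p under 0.05 over all 14239 genes tested). The falls were Atp6v0d2, Naglu, Mcoln1, Hexa, Atp6v1c1, Idua, Npc1, Gusb and Lipa, and the rises were Atp6v0c, Ppt1 and Asah1. There were 9 falls and 3 rises without Trem2 mutant 1, 8 and 7 without Trem2 mutant 3, 3 and 1 without WT 1, and 3 and 2 without WT 2. With all libraries, DESeq2 gave 5 falls and 3 rises (198 and 1063 over all genes tested). Library totals as the only scaling gave 23 and 1 (4365 and 650 over all genes tested). Over all genes tested the main fit gave 513 falls and 1360 rises, and those counts also moved when a library was left out. The rise of Atp6v0c turned into a fall once reads on its pseudogene were added, as described with the V0 sector. The falls were 21.4% of the genes, beside 3.6% of all genes tested, and the rises were 7.14%, beside 9.55%. Among the 6527 genes at least as abundant as the lowest of the 42 (a mean of 19.4 CPM), 5.41% fell and 14.8% rose. The median log2 fold change of the 42 genes was −0.07, against −0.02 over all genes tested and 0.014 over those 6527 genes. Mutant libraries both lay below both WT libraries for 21 of the 42 genes (beside 31.7% of all genes tested), and both lay above for 12 (28.6%, beside 28.9%). With library totals as the only scaling, the median over all genes tested moved from −0.02 to −0.40, and directions below are relative to the TMM scaling.

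**Figure D1:**
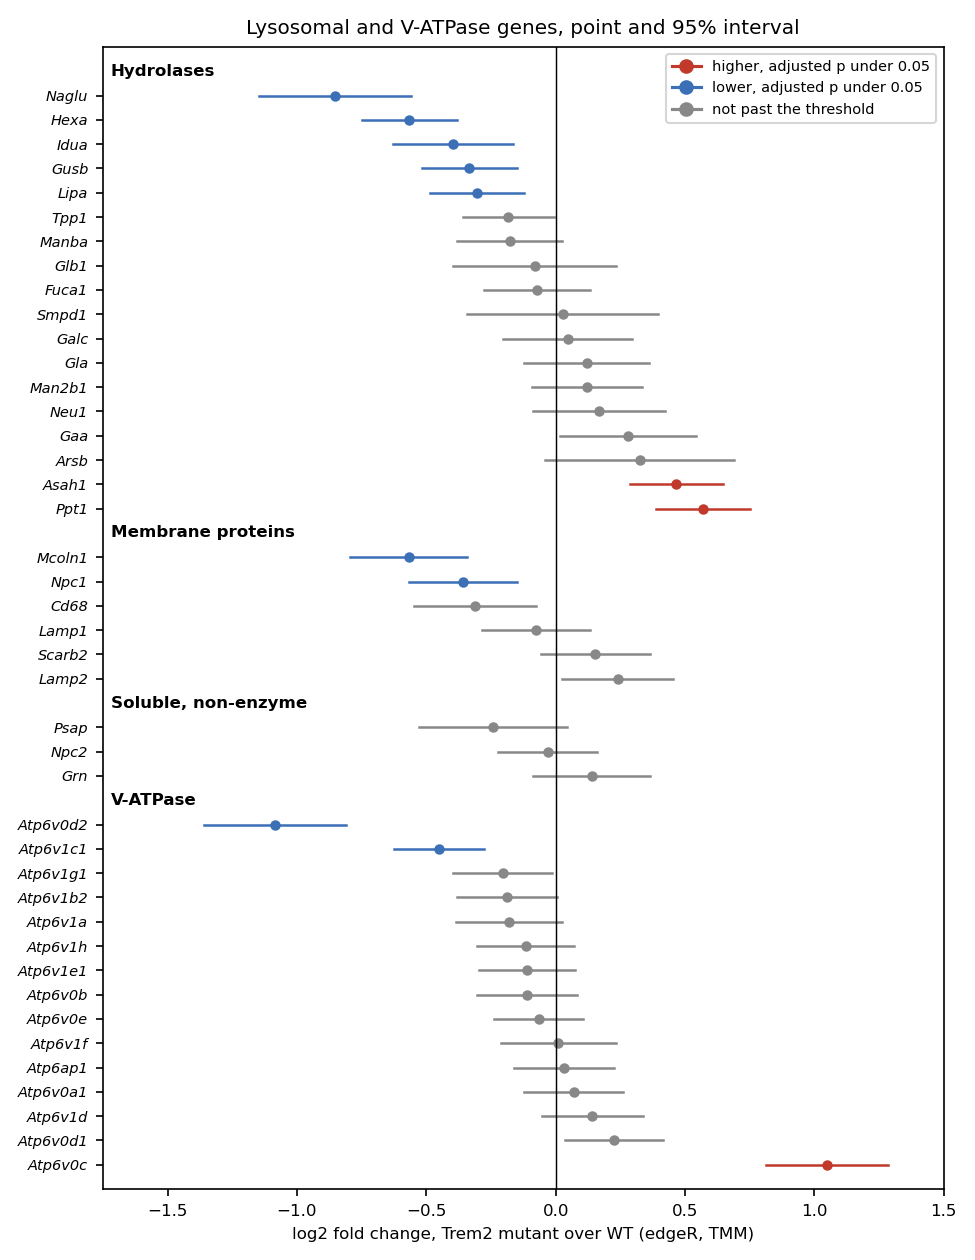
Log2 fold change (x axis, Trem2 mutant over WT, TMM-scaled) of each of the 42 genes by class, as the edgeR estimate (point) with its 95% interval (line), not adjusted for the number of genes. The 9 genes that fell lie between −1.085 and −0.30, and Ppt1, Asah1 and Atp6v0c lie to the right of 0.

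**Figure D2:**
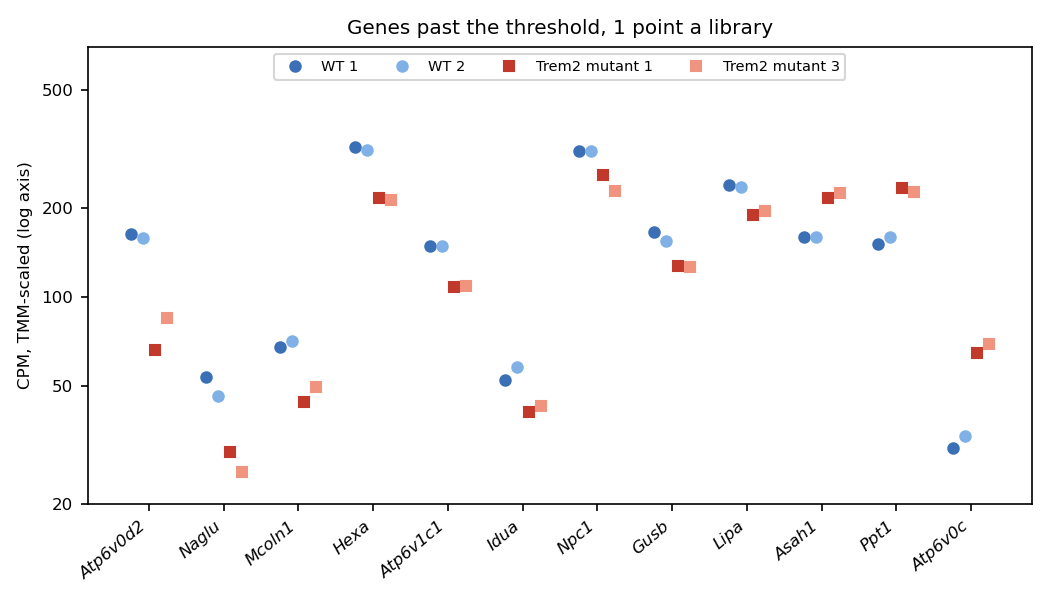
TMM-scaled CPM (log axis) of the 12 genes past the threshold, 1 point a library (circles WT, squares Trem2 mutant). The 2 WT and 2 mutant libraries do not overlap for any of the 12, which were picked by a test on these same libraries. Over all genes tested, mutant libraries both lay above WT for 28.9% and both below for 31.7%. Atp6v0d2 has the widest gap among the falls.

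Of the 18 hydrolases, 5 fell (27.8%, beside 3.6% of all genes tested), 2 rose (11.1%, beside 9.55%) and 11 did not pass. The median log2 fold change of the 18 was −0.02, with a range of −0.85 to 0.57. Their summed level was 2318 and 2338 CPM in the WT pair and 2348 and 2244 CPM in the mutant pair, and the groups overlapped. Without Trem2 mutant 1, the library rich in Gm42418 reads, 4 hydrolases fell and 2 rose. Leaving out either WT library brought the falls to 2 and the rises to 0 (WT 1) or 1 (WT 2), and leaving out Trem2 mutant 3 gave 5 of each. Grouped by substrate, a grouping made after the values were seen, the falls included 3 of the 4 enzymes that degrade glycosaminoglycans.

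Naglu encodes alpha-N-acetylglucosaminidase, which removes N-acetylglucosamine from heparan sulfate, and lies at chromosome 11, 101070012 to 101077672 (GRCm38, plus strand). It had 53.8 and 46.2 CPM in WT 1 and WT 2, and 29.8 and 25.7 CPM in Trem2 mutant 1 and Trem2 mutant 3. Every mutant value was under every WT value. The log2 fold change was −0.85 (SE 0.126, adjusted p = 0.00521, edgeR), the deepest fall among the 18 enzymes. Idua encodes alpha-L-iduronidase, which acts on heparan and dermatan sulfate. It went from 52.3 and 57.9 CPM in the WT pair to 41.0 and 42.8 CPM in the mutant pair, a log2 fold change of −0.40 (SE 0.0999, adjusted p = 0.0395, edgeR). Gusb encodes beta-glucuronidase, which removes glucuronic acid from the same chains. It went from 165 and 154 CPM to 127 and 127 CPM, a log2 fold change of −0.33 (SE 0.0790, adjusted p = 0.0319, edgeR). Idua and Gusb no longer passed when WT 1 was left out (−0.47 and −0.28), when WT 2 was left out (−0.32 and −0.38) or with DESeq2 (−0.38 and −0.32). Arsb, the sulfatase that acts on dermatan and chondroitin sulfate, was the remaining enzyme of the group. Its 20.6 and 17.4 CPM in the WT pair and 26.5 and 21.2 CPM in the mutant pair did not pass (log2 fold change 0.32, 95% interval −0.04 to 0.69). Gm26527, a long noncoding RNA gene on the opposite strand, covers 32.3% of the exon bases of Arsb, and reads of the pair cannot be told apart without strand.

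Among 7 enzymes of sphingolipid and glycolipid breakdown, Hexa fell, Asah1 rose and 5 did not pass. Hexa encodes the alpha subunit of beta-hexosaminidase, the enzyme that clears ganglioside GM2 (chromosome 9, 59539540 to 59565109, plus strand). It had 320 and 313 CPM in the WT pair and 216 and 212 CPM in the mutant pair. The gap between groups was far wider than the spread within either, with a log2 fold change of −0.57 (SE 0.0785, adjusted p = 0.00399, edgeR). Tmem202 overlaps its exons on the opposite strand, and with those reads added the value was −0.56. Hexa was also the most abundant of the 18 enzymes, at 159 CPM per kb of exon in WT and 107 in mutant libraries. Asah1 encodes acid ceramidase, which splits ceramide (chromosome 8, 41340197 to 41374773, minus strand). It had 160 and 159 CPM in the WT pair and 217 and 224 CPM in the mutant pair, a log2 fold change of 0.47 (SE 0.0768, adjusted p = 0.00797, edgeR). Asah1 no longer passed when WT 1 (0.47) or WT 2 (0.46) was left out, or with library totals alone (0.10). The other 5 were Smpd1 (acid sphingomyelinase), Galc (galactosylceramidase), Gla (alpha-galactosidase A), Glb1 (beta-galactosidase) and Neu1 (sialidase). Their log2 fold changes ran from −0.08 for Glb1 to 0.17 for Neu1, and their 95% intervals together spanned −0.40 to 0.42. For Gla, Glb1, Neu1, Smpd1 and Galc, WT and mutant libraries overlapped.

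The remaining 7 hydrolases act on other substrates. Ppt1 encodes palmitoyl-protein thioesterase, which removes fatty acyl groups from proteins (chromosome 4, 122836242 to 122859175, plus strand). It had 151 and 159 CPM in the WT pair and 233 and 227 CPM in the mutant pair. This was the largest rise among the enzymes, with a log2 fold change of 0.57 (SE 0.0790, adjusted p = 0.00397, edgeR), but Ppt1 no longer passed when WT 1 was left out (0.53) or with library totals alone (0.20). Tpp1, a tripeptidyl peptidase whose loss, like that of Ppt1, causes neuronal ceroid lipofuscinosis, lay at 170 and 174 CPM in the WT pair and 152 and 151 CPM in the mutant pair and did not pass (log2 fold change −0.18, adjusted p = 0.153, edgeR). Lipa encodes acid lipase, which releases cholesterol from cholesteryl esters. It went from 240 and 235 CPM in the WT pair to 189 and 195 CPM in the mutant pair (log2 fold change −0.30, SE 0.0776, adjusted p = 0.0408, edgeR). Lipa no longer passed when WT 1 (−0.29), WT 2 (−0.32) or Trem2 mutant 1 (−0.27) was left out, or with DESeq2 (−0.29). Gaa, the acid glucosidase that degrades glycogen, had 36.2 and 37.2 CPM in the WT pair and 48.2 and 41.1 CPM in the mutant pair (log2 fold change 0.28, adjusted p = 0.147, edgeR) and was called only without Trem2 mutant 3 among the settings run. The glycoprotein enzymes Man2b1 and Manba (alpha- and beta-mannosidase) and Fuca1 (fucosidase) had log2 fold changes of 0.12, −0.18 and −0.07, and none passed. Man2b1 had 423 and 464 CPM in the WT pair and 497 and 469 CPM in the mutant pair (95% interval of its log2 fold change −0.09 to 0.34). Per kb of exon it came next after Hexa among the enzymes in WT (55.3 CPM per kb), while in mutant libraries Asah1 (65.1) and Ppt1 (62.7) lay above it (60.2).

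Of the 6 membrane proteins, 2 fell (33.3%, beside 3.6% of all genes tested), 0 rose (beside 9.55%) and 4 did not pass. The median log2 fold change of the 6 was −0.19. Cd68, Lamp1, Lamp2 and Scarb2 were the 4 that did not pass. Together with the soluble proteins, 0 fell when WT 1 or WT 2 was left out, 3 without Trem2 mutant 1 and 1 without Trem2 mutant 3. Mcoln1 encodes TRPML1, the channel that releases calcium from lysosomes (chromosome 8, 3500457 to 3515232, plus strand). It had 67.9 and 71.3 CPM in the WT pair and 44.2 and 49.5 CPM in the mutant pair. No library crossed between groups, and the log2 fold change was −0.57 (SE 0.0974, adjusted p = 0.00936, edgeR). Mcoln1 no longer passed when WT 1 (−0.60) or WT 2 (−0.53) was left out. Npc1 encodes the transporter that passes cholesterol out of the lysosome. It went from 313 and 312 CPM in the WT pair to 258 and 229 CPM in the mutant pair (log2 fold change −0.36, SE 0.0896, adjusted p = 0.0382, edgeR). Npc1 no longer passed when WT 1 or WT 2 (both −0.36) or Trem2 mutant 3 (−0.26) was left out, or with DESeq2 (−0.34). Npc1 and Lipa, described above, both act in cholesterol release from lysosomes, as does Npc2, which did not pass (log2 fold change −0.03).

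Cd68, a heavily glycosylated protein used as a macrophage marker, was the most abundant membrane protein per kb of exon in WT (275 CPM per kb, against 243 for Lamp1) but not in mutant libraries (222, against 230 for Lamp1). It had 349 and 343 CPM in the WT pair and 303 and 255 CPM in the mutant pair, which did not overlap but did not pass (log2 fold change −0.31, SE 0.102, adjusted p = 0.0864, edgeR). Without Trem2 mutant 1 it was called lower. Lamp1 and Lamp2 coat the inner face of the lysosomal membrane. Lamp1 lay at 641 and 658 CPM in the WT pair and 633 and 600 CPM in the mutant pair, with a log2 fold change of −0.08 (95% interval −0.28 to 0.13). Lamp2 lay at 527 and 576 CPM in the WT pair and 648 and 654 CPM in the mutant pair, with a log2 fold change of 0.24 (95% interval 0.03 to 0.45, adjusted p = 0.130, edgeR). Lamp2, Gla and Atp6ap1 lie on the X chromosome, and the part of the Xist difference in their values was not tested. Scarb2, the receptor that carries beta-glucocerebrosidase to lysosomes, had 128 and 127 CPM in the WT pair and 132 and 152 CPM in the mutant pair and did not pass.

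None of the 3 soluble proteins that are not enzymes passed (edgeR, adjusted p of 0.233 to 0.840; 0 at an unadjusted p under 0.05, and 0 with DESeq2 or limma-voom). Psap, the precursor of the saposins that present lipids to hydrolases, was the most abundant of all 42 genes at 1784 CPM per kb in WT and 1509 in mutant libraries. It had 4970 and 4818 CPM in the WT pair and 4326 and 3954 CPM in the mutant pair. Both mutant values were lower, but the log2 fold change of −0.24 (SE 0.123) had a 95% interval of −0.53 to 0.04. Grn, which encodes progranulin, a chaperone-like protein of lysosomes, lay at 437 and 443 CPM in the WT pair and 518 and 451 CPM in the mutant pair (log2 fold change 0.14). Npc2, which hands cholesterol to Npc1, was close to level, at 272 and 262 CPM in the WT pair and 270 and 253 CPM in the mutant pair (log2 fold change −0.03, 95% interval −0.22 to 0.16).

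Of the 15 V-ATPase genes, 2 fell (13.3%), 1 rose (6.67%) and 12 did not pass, with a median log2 fold change of −0.11. Over all genes tested, 3.6% fell and 9.55% rose. Their summed level was 3003 and 2916 CPM in the WT pair and 2792 and 2776 CPM in the mutant pair. The called changes sat in 2 subunits of the V0 sector and 1 of the V1 sector. Without Trem2 mutant 1 the counts were again 2 and 1, while 1 fell when WT 1 or WT 2 was left out and 2 rose without Trem2 mutant 3.

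Atp6v0d2 encodes the d2 form of the V0 subunit that links the sectors, known from osteoclasts and macrophages (chromosome 4, 19876841 to 19922605, minus strand). It had 163 and 158 CPM in the WT pair and 66.2 and 85.0 CPM in the mutant pair. The fall was 2.12-fold (log2 fold change −1.085, SE 0.118, adjusted p = 0.00144, edgeR), the deepest among the 42 genes. Its widely expressed paralogue Atp6v0d1 lay at 174 and 173 CPM in the WT pair and 211 and 195 CPM in the mutant pair. That difference did not pass (log2 fold change 0.23, 95% interval 0.04 to 0.41, adjusted p = 0.110, edgeR), though Atp6v0d1 was called higher without Trem2 mutant 3. Per kb of exon, Atp6v0d2 made up 38.2% and 37.7% of the d subunit level in WT, and 17.15% and 22.3% in mutant libraries. The share is given without a test, since an exact permutation test over 2 against 2 libraries cannot go below p = 0.333.

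Atp6v0c encodes the c subunit of the proton-carrying ring (chromosome 17, 24163866 to 24169702, minus strand). Taken alone, it had 30.9 and 34.0 CPM in the WT pair and 64.7 and 69.6 CPM in the mutant pair, a log2 fold change of 1.05 (SE 0.102, adjusted p = 8.94e-04, edgeR). Its processed pseudogene Atp6v0c-ps2 on chromosome 6 (37806086 to 37806550, plus strand) went the other way. Atp6v0c-ps2 had 104 and 93.8 CPM in the WT pair and 31.9 and 15.7 CPM in the mutant pair (log2 fold change −2.06, SE 0.257, adjusted p = 0.00261, edgeR). In the transcript sequences, 88.0% of the 50-base words of the pseudogene also occur in Atp6v0c, so assignment of reads between them is uncertain. Summed over both, the level was 135 and 128 CPM in the WT pair and 96.6 and 85.3 CPM in the mutant pair. The summed log2 fold change was −0.53 (SE 0.0890, adjusted p = 0.00878, edgeR), opposite in sign to that of Atp6v0c alone. With reads summed in this way, 0 V-ATPase subunits rose and 3 fell. This sum was added after the values were seen. Atp6v0c alone stood at 9.59 CPM per kb in WT, under the 101 CPM per kb of Atp6v0b, which encodes the c″ subunit of the same ring. The level of Atp6v0c rests on the uncertain assignment of reads between it and its pseudogene, so this gap does not measure the balance of the subunits.

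**Figure D3:**
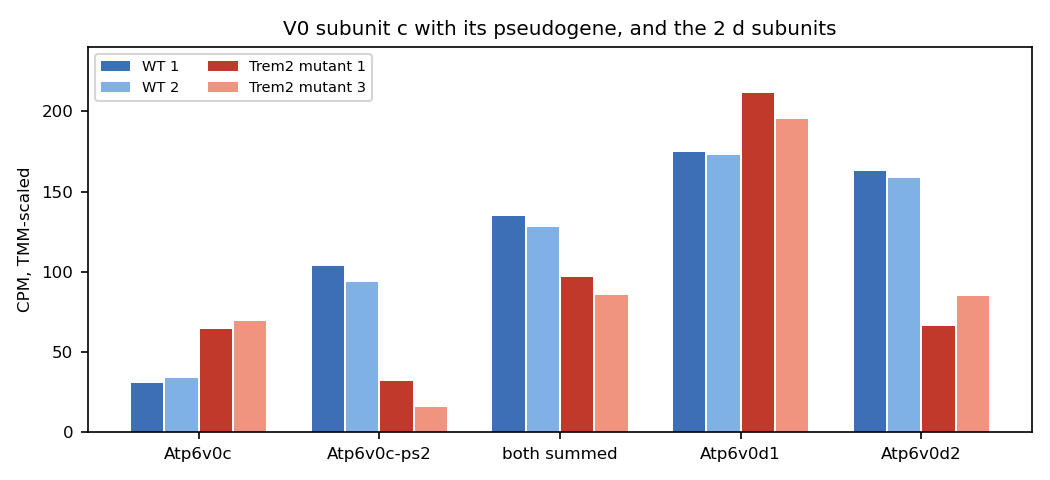
TMM-scaled CPM (y axis, from 0) in each of the 4 libraries for Atp6v0c, its pseudogene Atp6v0c-ps2, both summed, and the paralogues Atp6v0d1 and Atp6v0d2. Atp6v0c is higher in the mutant libraries alone but lower (96.6 and 85.3 against 135 and 128 CPM) once the pseudogene is added, and Atp6v0d2 is lower in both mutant libraries.

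The other V0 genes did not pass. Atp6v0a1, the a1 subunit that forms the proton path with the ring, lay at 431 and 418 CPM in the WT pair and 442 and 449 CPM in the mutant pair. Tcirg1, the a3 form that is not among the 42 genes, lay at 269 and 267 CPM in the WT pair and 227 and 195 CPM in the mutant pair and just missed the threshold (log2 fold change −0.35, adjusted p = 0.0501, edgeR). Atp6v0b had 217 and 197 CPM in the WT pair and 190 and 194 CPM in the mutant pair (log2 fold change −0.11), and the small subunit gene Atp6v0e was at −0.07.

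In the V1 sector, 1 of 8 subunits fell (12.5%, beside 3.6% of all genes tested), 0 rose and 7 did not pass. Atp6v1c1 encodes the C subunit, which helps hold V1 on V0 (chromosome 15, 38661933 to 38692446, plus strand). It had 149 and 149 CPM in the WT pair and 109 and 109 CPM in the mutant pair. The 2 libraries of each genotype were nearly level, and the log2 fold change was −0.45 (SE 0.0747, adjusted p = 0.00812, edgeR). Atp6v1c1 no longer passed when WT 1 or WT 2 was left out, at −0.45 in each case. The ATP-binding subunits Atp6v1a and Atp6v1b2 had log2 fold changes of −0.18 and −0.19 and did not pass. Atp6v1g1, part of the peripheral stalk, was at −0.20, and its stalk partner Atp6v1e1 at −0.11. Atp6v1h (−0.12), a regulatory subunit, and the central-stalk subunits Atp6v1d (0.14) and Atp6v1f (0.01) completed the sector. Mutant libraries both lay below WT for 6 of the 8, beside 31.7% of all genes tested. No V1 interval reached below −0.63 or above 0.34. Atp6ap1, an accessory protein of V0, was the most abundant of the 15 per kb of exon in WT (104 CPM per kb), while in mutant libraries it stood at 107, under Atp6v0d1 at 113. It had 327 and 304 CPM in the WT pair and 321 and 325 CPM in the mutant pair, which overlapped (log2 fold change 0.03, 95% interval −0.16 to 0.23).

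**Figure D4:**
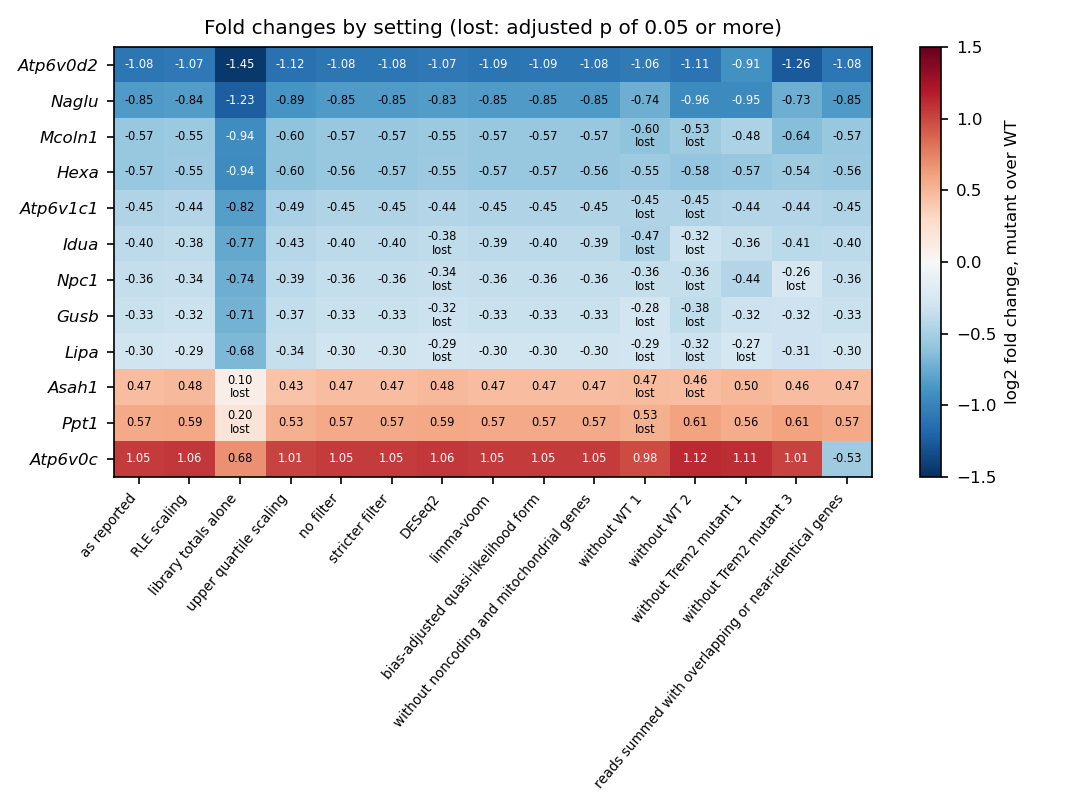
Log2 fold change (colour and number, mutant over WT) of the 12 called genes (rows) as reported and under each of 14 alternative settings (columns), with "lost" where the adjusted p was 0.05 or more. Hexa, Naglu and Atp6v0d2 keep their call in every column, and Atp6v0c changes sign when pseudogene reads are added.

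Across those 14 settings, 3 of the 12 called genes, Hexa, Naglu and Atp6v0d2, kept their direction and their call.

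Other genes of the compartment, from lists outside the 42, moved in both directions. Of 23 further hydrolases and their helpers 3 rose and 1 fell, with a median of −0.09 on the log2 scale. Hgsnat, which acetylates heparan sulfate ends before Naglu acts, rose 2.60-fold (24.6 and 32.3 CPM in the WT pair, 75.2 and 73.0 CPM in the mutant pair, adjusted p = 8.57e-04, edgeR). Plbd2, a phospholipase-like protein, was 1.34-fold lower. Of 21 further membrane proteins tested, 1 (4.76%), the cation channel gene Tpcn2, rose and 0 fell. Of 8 further V-ATPase genes tested, 1 (12.5%), Dmxl2, whose product assembles the pump, rose 1.38-fold and 0 fell (median −0.08).

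Among 11 genes that sort enzymes to lysosomes, 1 rose (9.09%, beside 9.55% of all genes tested) and 2 fell (18.2%, beside 3.6%). Their median was −0.14. Sort1 encodes sortilin, a receptor for Psap and progranulin, and rose 1.95-fold (98.6 and 99.8 CPM in the WT pair, 209 and 178 CPM in the mutant pair, adjusted p = 0.00102, edgeR). Igf2r, the large mannose 6-phosphate receptor, was 1.41-fold lower (adjusted p = 0.0151, edgeR), and the adaptor gene Gga2 was 1.83-fold lower (adjusted p = 0.00414, edgeR). The small receptor gene M6pr did not pass (log2 fold change −0.21). Among 17 regulators tested, 1 rose (5.88%) and 3 fell (17.6%), with a median of −0.18. Tfec, a relative of TFEB found in myeloid cells, fell (74.1 and 70.7 CPM in the WT pair, 41.3 and 49.5 CPM in the mutant pair, adjusted p = 0.00782, edgeR). Fnip2, a partner of folliculin in nutrient signalling at lysosomes, fell 1.59-fold, and Rptor, an mTORC1 subunit, 1.38-fold. Rragd, a Rag GTPase, rose 2.04-fold from 7.09 ± 0.494 to 14.5 ± 4.16 CPM (SD, n = 2 each). Tfeb (log2 fold change −0.41, adjusted p = 0.106, edgeR), Tfe3 (0.15) and Mitf (−0.21) did not pass.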

How the data were processed

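RNA was measured in 4 libraries, 2 per genotype, after ribosomal RNA depletion, per the labels' protocols. The authors deposited raw counts of reads per Ensembl gene. The submitters' processing notes name GRCm38 (mm10) as build and, among tools, STAR 2.5.2a, DESeq2 and FastQC. The sources used here do not name the counter, its strand setting or the annotation. Every listed gene had at least 11 reads in all. GENCODE M21 (GRCm38) named 17422 of 17476 IDs and gave exon lengths, with all annotated exons of a gene merged. The second mutant column is numbered 3, which matches no label, and was used as a mutant library without a number. Scaled by library totals alone, not by TMM, library pairs differed by more than sampling noise (ratios 2.28 for WT and 10.5 for mutant, over genes with at least 100 reads). The mutant ratio thus includes any offset from the Gm42418 reads (13.9% in Trem2 mutant 1, 0.418% in Trem2 mutant 3). The size of that part was not tested.

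Counts were fitted with edgeR 4.0.16 in R 4.3.3: filterByExpr (14239 genes), TMM, glmQLFit in its default form and glmQLFTest (two-sided), genotype as the only term, Benjamini-Hochberg adjustment at 0.05, with 2 residual and 5.71 prior degrees of freedom. SEs are the log2 fold change over the root of F, and 95% intervals use these degrees of freedom. Steps were tested on simulated data. Alternatives used other scalings and filters, DESeq2 1.42.0, limma-voom (limma 3.58.1), the bias-adjusted form, no noncoding or mitochondrial genes (4428 left out), each library left out, and reads summed with genes sharing at least 5% of 50-base words. A library left alone in its group was taken to vary as much as the pair it was compared with.

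The members and lists were chosen with earlier results of these data known. All 42 members could be named. Some genes of the other lists are not reported here. From the other lists, up to 4 genes with the lowest p could be named, beside Trem2 and Gm42418. Itgam, Ptprc, Xist, Gm26527, Tcirg1, M6pr, Tfeb, Tfe3, Mitf, Krt8, Atp6v0c-ps2 and the CPM per kb ratios lie outside that rule, and most were chosen after their values were seen.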

Additional observations from a re-analysis of the deposited data

How the results depend on the processing

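Of 12 called members, 3 kept direction and call in all 14 alternatives and 1, Atp6v0c, changed sign: with its pseudogene's reads added, a choice made after seeing the data, it was at −0.53 and 0 V-ATPase subunits rose. With library totals alone, 0 hydrolases rose and 8 fell, 6 membrane and soluble proteins fell and 9 V-ATPase subunits fell, while over all genes 650 rose and 4365 fell, against 1360 and 513 with TMM. That scaling turned Lamp2 to −0.13, Scarb2 to −0.21, Grn to −0.24, Gaa to −0.10, Gla to −0.26, Man2b1 to −0.25, Neu1 to −0.22, Smpd1 to −0.35, Arsb to −0.058, Galc to −0.32, Atp6v0a1 to −0.30, Atp6v0d1 to −0.15, Atp6v1d to −0.23, Atp6v1f to −0.36 and Atp6ap1 to −0.34 (log2 fold changes). Upper quartile scaling put Smpd1 at −0.0088, Atp6v1f at −0.025 and Atp6ap1 at −0.0043. With DESeq2, 2 hydrolases and 1 membrane or soluble protein fell, and 198 of all genes fell. With each library left out in turn, 0 to 5 hydrolases rose and 2 to 5 fell, 0 to 3 membrane and soluble proteins fell, and 1 to 2 V-ATPase subunits rose and 1 to 2 fell. The hydrolase median ran from −0.13 to 0.022 in those fits, Npc2 from −0.068 to 0.034, Glb1 from −0.15 to 0.0077, Smpd1 from −0.17 to 0.25, Galc from −0.0011 to 0.12, Fuca1 from −0.15 to 0.028, Atp6v1f from −0.068 to 0.092 and Atp6ap1 from −0.020 to 0.084. Over all genes, 489 rose and 92 fell without WT 1, 719 and 129 without WT 2, and 2090 and 912 without Trem2 mutant 3. Each of these fits has fewer samples and measures the spread within a group only in the pair left whole. The part of either in the counts was not tested. No paired analysis was possible because the columns of the 2 genotypes share only the number 1.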

Other observations

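Ratios of levels between 2 pairs of genes, in CPM per kb of exon, were chosen after the values were seen and are given with no test. Naglu and Hgsnat encode enzymes that act in turn on heparan sulfate. The ratio of Naglu to Hgsnat was 2.72 and 1.78 in the WT pair against 0.493 and 0.438 in the mutant pair. For the V-ATPase a subunit, the ratio of Tcirg1 (a3) to Atp6v0a1 (a1) was 0.890 and 0.912 in the WT pair against 0.730 and 0.619 in the mutant pair.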
